A study of Mus musculus with 29 samples.

Results

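The ligands and receptors of axon guidance were examined in cultured stromal vascular cells of mouse white fat. The members were the protein-coding genes of the semaphorin, plexin, neuropilin, ephrin, Eph receptor, Slit, Robo, netrin and Unc5 families, taken by symbol. The families were chosen with earlier results of these data known. All 68 such symbols of the mouse annotation had a row among the 56953 features of the count table. Of these 68 genes, 66 had at least 1 count in at least 1 library and 24 were abundant enough to be tested.

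These families were named for steering growing axons, but most are also used by vessels, epithelia, immune cells and fibroblasts to attract, repel or sort neighbouring cells. Semaphorins signal through plexins, and the secreted class 3 semaphorins usually need a neuropilin as co-receptor. Ephrins are held in the membrane and bind Eph receptor tyrosine kinases on the cell next to them, so that both cells can receive a signal. Secreted Slits bind Robo receptors, and secreted netrins bind Dcc, neogenin and the Unc5 receptors. In adipose tissue, members of these families are known from the innervation and vascularization of the depots and from their stromal cells.

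Crude stromal vascular fraction (SVF), the non-adipocyte cells left after digestion of fat, was taken from the inguinal (iWAT, subcutaneous) and perigonadal (pgWAT, visceral) depots of adult C57BL6/J mice. Every culture was kept for 4 days in PM1 preadipocyte medium with 1 nM basic fibroblast growth factor in 96-well plates, so no group was left without the factor. The RNA of 1 well gave 1 library, made by Smart-seq3, which covers transcripts over their full length. By label, 19 libraries came from iWAT (10 male and 9 female) and 10 from pgWAT (4 male and 6 female). The study's methods give other group sizes for male iWAT and for both sexes of pgWAT, so the labels and the methods do not match there. The study describes the wells as technical replicates of a few independent experiments and the labels do not tell which well came from which, so the p-values below measure the spread between wells and not between mice.

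Libraries held 315322 to 1102243 counts, and 3 counts, the limit that a count of 0 allows, corresponded to 2.58 to 9.76 CPM (counts after scaling each library to the same total), depending on the library (counting error only). In iWAT the X-inactivation transcript Xist and 4 Y-linked genes matched the sex label in all 19 libraries. In pgWAT they went against the label or met it only partly in 5 of 10 libraries: pgWAT male 2 and 4 had 24 and 60 Xist counts with 1 and 0 Y-linked counts, pgWAT female 2 and 3 had 0 Xist counts with 23 and 26 Y-linked counts, and pgWAT female 1 had 7 and 10. Labels were kept as deposited, and each result is also given without these 5 libraries where that changes it. On the plate in which the libraries were made, these 5 are the pgWAT wells of columns 9 and 10, and the remaining pgWAT wells lie in columns 7 and 8. Within pgWAT, disagreement with the sex label and plate column therefore cannot be told apart. Leaving out the 5 libraries and fitting the plate column are not separate checks. The cultures carried fibroblast markers throughout (6 genes, summed CPM 6389 to 12199 in iWAT and 11687 to 22688 in pgWAT). iWAT female 9 stood apart with a summed epithelial marker level of 1453 CPM, against a median of 40.7 in iWAT.

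Most guidance genes were expressed at a low level. Between 38 and 56 of the 68 members had a count in a given library, and the members together took 0.124% to 0.209% of its counts. In iWAT 23 members had a count in every library, and in pgWAT 30 did. Epha6, an ephrin-A receptor, and Sema5b, a transmembrane semaphorin, had 0 counts in all 29 libraries, which allows a level of up to 0.238 CPM over the pooled iWAT libraries and 0.527 CPM over the pooled pgWAT libraries.

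Compared per kilobase of transcript over all 29 libraries, the highest level belonged to Slit3, a secreted Robo ligand, at 53.0 CPM per kb. It was followed by the netrin receptor Unc5b with 37.4 CPM per kb, the semaphorin receptor Plxnb2 with 37.3 CPM per kb and the neuropilin Nrp1 with 32.2 CPM per kb. The order differed by depot: in iWAT it ran Slit3 (41.5), Unc5b (38.6), Plxnb2 (30.6), Sema7a (30.5) and Nrp1 (28.7 CPM per kb), and in pgWAT Slit3 (74.9), Plxnb2 (50.04), Nrp1 (38.8) and Unc5b (35.0 CPM per kb). The membrane-anchored Sema7a reached 21.6 CPM per kb and the plexin Plxna1 14.5 CPM per kb. In the remaining families the leading members were lower, with 8.72 CPM per kb for Sema3a, 8.16 for Ephb3, 7.43 for Efnb1, 6.02 for Ntn1, 5.08 for Efna1, 2.00 for Robo4 and 1.50 for Epha2. No EphA receptor and no Robo passed the filter on low counts, although ligands of both (Efna1, Efna5, Slit2 and Slit3) did.

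**Figure D1:**
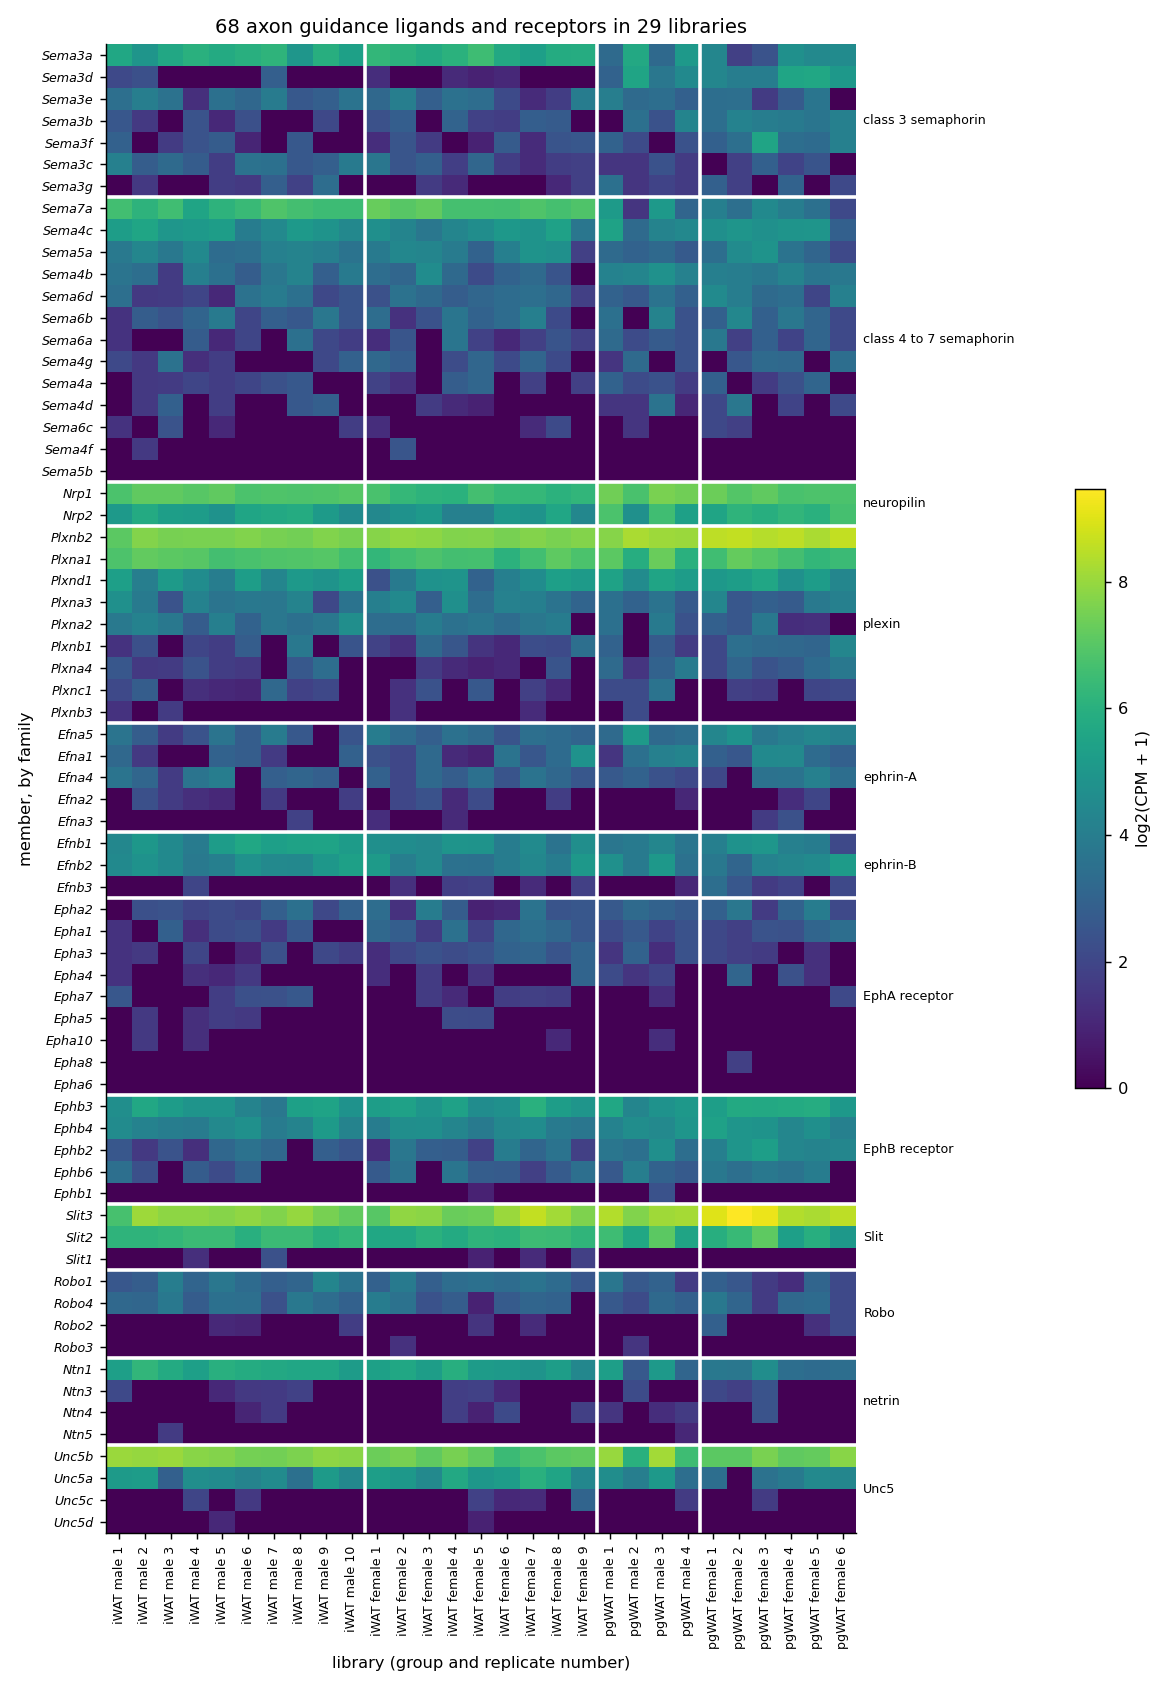
Level of each of the 68 members (rows, by family, most abundant first within a family) in each of the 29 libraries (columns, by group), as log2(CPM + 1). The rows of Slit3, Unc5b, Plxnb2 and Nrp1 are bright in every library, and Sema7a is bright in the 19 iWAT columns and dimmer in the 10 pgWAT columns. Sema3d is brighter in the pgWAT than in the iWAT columns, but its mean of 26.4 CPM in pgWAT is below the 100 CPM of Sema7a in iWAT.

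The question of which members kept a difference by depot of origin after culture was addressed by comparing pgWAT with iWAT, with both sex labels weighted equally. Of the 24 members tested, 9 were called higher and 5 lower in pgWAT (edgeR quasi-likelihood test, FDR below 0.05), or 58.3%. Of all 8853 genes tested, 38.1% were called, namely 20.1% higher and 17.9% lower. The median absolute log2 fold change was 0.69 over the members and 0.32 over all genes, and the signed medians were 0.15 and 0.01. These shares are descriptions: 4 members (Sema3d, Ephb2, Efna5 and Sema4b) passed the filter through pgWAT alone and 4 (Sema7a, Ntn1, Sema5a and Plxna3) through iWAT alone, so that a difference was built into their selection, and Efna1 passed through libraries of both together. Of the 15 that passed in either depot, 4 were called higher and 3 lower. Only Sema3d and Sema7a had CPM ranges that did not overlap between the depots, which was the case for 2.13% of all genes tested (1.47% higher and 0.666% lower in pgWAT). As these are bulk cultures, fewer cells of a type and less RNA per cell cannot be told apart.

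Among secreted class 3 semaphorins, Sema3d was higher and Sema3a lower in pgWAT. Sema3d had 11 counts in the 19 iWAT libraries together and 155 counts in the 10 pgWAT libraries. Its level in iWAT was 0, 0 and 6.23 CPM (lowest, median and highest library). In pgWAT male 1 to 4 it was 6.94, 44.9, 12.5 and 21.4 CPM, and in pgWAT female 1 to 6 it was 19.2, 15.0, 15.2, 47.0, 48.9 and 32.5 CPM. All 10 pgWAT libraries lay above the highest iWAT library, although the lowest of them did so narrowly. The depot difference on the log2 scale was 4.61 ± 0.43 (SE, edgeR FDR = 1.77e-10). In fits restricted to plate columns 8 and 9, the columns with enough wells of both depots, it was 5.93 and 4.45. These are columns of the plate in which the libraries were made, from the well names in the labels. Column 8 holds pgWAT male 1, pgWAT female 4, 5 and 6 and iWAT female 6, 7 and 8. Column 9 holds pgWAT male 2 and 4, iWAT male 3, 6 and 7 and iWAT female 9. The wells per depot are few, and depot and sex label are only partly separate within each column. In column 9 both pgWAT wells went against their male label, with 24 and 60 Xist counts and 1 and 0 Y-linked counts. The iWAT wells there were male by label and by transcripts, except iWAT female 9. Depot and sex by transcripts can therefore hardly be told apart within column 9, for this and every other member.

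Sema3a, a repellent that acts through Nrp1 and A-type plexins, ran from 29.3 to 91.1 CPM in iWAT with a median of 56.5 CPM. In pgWAT male 1 to 4 it was 8.68, 51.9, 8.33 and 33.2 CPM, and in pgWAT female 1 to 6 it was 19.2, 2.50, 4.34, 26.3, 20.7 and 22.8 CPM. Of the 10 pgWAT libraries, 8 lay below the lowest iWAT library, and pgWAT male 2 and 4 lay within the iWAT range. This was a log2 fold change of -1.45 ± 0.25 (SE, edgeR FDR = 1.39e-05). It was -2.01 without the 5 pgWAT libraries above, -1.32 within plate column 8 and -0.52 (FDR = 0.208) within plate column 9, where the pgWAT wells are male 2 and 4. In pgWAT the libraries with the most Sema3a were therefore not those with the least Sema3d: pgWAT male 2 had the highest Sema3a and the third highest Sema3d level.

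Sema3d and Sema3a are neighbouring protein-coding genes on mouse chromosome 5 with 0 protein-coding genes between them. Their promoter windows, 250 bases before to 50 bases after the start site, are shown with that of Sema7a because these are the semaphorins with called differences of at least 2-fold. They are RefSeq sequences of build GRCm38.p6 on the plus strand, at chr5:12382916-12383215 (Sema3d), chr5:13396534-13396833 (Sema3a) and chr9:57939862-57940161 (Sema7a). Capitals mark E-boxes (CANNTG, the same on both strands).
Sema3d: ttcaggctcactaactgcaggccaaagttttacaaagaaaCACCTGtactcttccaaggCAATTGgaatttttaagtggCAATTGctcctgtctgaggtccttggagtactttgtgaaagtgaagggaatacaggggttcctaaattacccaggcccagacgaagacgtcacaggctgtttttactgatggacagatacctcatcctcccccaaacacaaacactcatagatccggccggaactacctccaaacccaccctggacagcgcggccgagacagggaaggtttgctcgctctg
Sema3a: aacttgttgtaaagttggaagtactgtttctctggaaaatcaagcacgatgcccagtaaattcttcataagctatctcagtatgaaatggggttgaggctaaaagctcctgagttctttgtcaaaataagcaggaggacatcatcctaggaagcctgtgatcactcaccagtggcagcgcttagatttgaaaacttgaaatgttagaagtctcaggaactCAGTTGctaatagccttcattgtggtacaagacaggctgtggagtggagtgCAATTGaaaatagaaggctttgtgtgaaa
Sema7a: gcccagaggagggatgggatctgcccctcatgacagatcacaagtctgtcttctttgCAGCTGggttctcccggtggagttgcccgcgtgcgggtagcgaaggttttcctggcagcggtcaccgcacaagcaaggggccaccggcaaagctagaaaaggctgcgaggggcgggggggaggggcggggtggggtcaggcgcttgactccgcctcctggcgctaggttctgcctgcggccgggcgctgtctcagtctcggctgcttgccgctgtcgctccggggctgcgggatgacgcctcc

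The Sema3d window held 3 E-boxes, 8 CpG dinucleotides and 49.7% G and C, and the Sema3a window held 2 E-boxes, 2 CpG and 41.3% G and C. The Sema7a window was richer in G and C at 67.3%, with 23 CpG and 1 E-box, and held 2 GC boxes (GGGCGG on either strand), which the other windows lacked. Over the 59 members with a RefSeq entry (75 windows), 70.7% of windows had a GC box against 35.7% of all 32851 windows of the same length. An E-box was in 50.7% of the members' windows against 72.3% of all windows. The letters TATAAA, on either strand, were in 2.67% of the members' windows against 13.6%. The T-box core TCACACC, also on either strand, was in 5.33% against 3.98%. These are matches of letters and carry no measurement of binding.

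The other class 3 semaphorins were too low to be tested. Sema3b had 41 counts in iWAT and 66 in pgWAT, and 8 of 10 pgWAT libraries exceeded the highest iWAT library (7.15 CPM). Sema3f had 34 and 55 counts, with 6 of 10 pgWAT libraries above the highest iWAT library and a highest level of 45.6 CPM. Sema3c, in contrast, had a count in all 19 iWAT libraries, with a mean of 6.68 CPM, and a mean of 2.60 CPM in pgWAT. Sema3e had means of 8.69 CPM in iWAT and 7.96 CPM in pgWAT, and Sema3g had means of 1.65 and 3.61 CPM.

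Sema7a, a semaphorin anchored by a lipid tail that binds integrins and plexin C1, was the member most lowered in pgWAT. Its level in iWAT was 45.1, 99.0 and 152 CPM (lowest, median and highest library). It was 34.7, 1.73, 33.3 and 7.50 CPM in pgWAT male 1 to 4, and in pgWAT female 1 to 6 it was 16.0, 9.997, 21.7, 15.2, 10.4 and 3.25 CPM. All 10 pgWAT libraries lay below the lowest iWAT library. The log2 fold change was -2.64 ± 0.23 (SE, edgeR FDR = 3.72e-11), and it was -2.63 within plate column 8 and -4.22 within plate column 9. Its receptor Plxnc1 was not tested, with a count in 13 of 19 iWAT and 7 of 10 pgWAT libraries and highest levels of 8.31 and 11.1 CPM.

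Of the other membrane semaphorins that were tested, Sema4b, a class 4 member, was higher in pgWAT. Its level was 0, 8.67 and 23.2 CPM in iWAT (lowest, median and highest) and 11.9, 16.6 and 26.4 CPM in pgWAT, and the depots overlapped (log2 fold change 0.91 ± 0.27 SE, edgeR FDR = 0.00778). Sema4c, a ligand of plexin B2, was not called (-0.20, FDR = 0.524), nor was Sema5a, a semaphorin with thrombospondin repeats (-0.63, FDR = 0.0826). Sema5a passed the threshold without pgWAT female 3 (FDR = 0.0278), iWAT female 5 (FDR = 0.0458) or iWAT female 9 (FDR = 0.0427), and its value was larger with the plate column in the model (-0.99, FDR = 0.011) and within plate column 8 (-1.49, FDR = 0.0405). Sema6d had a count in every library, with means of 6.72 CPM in iWAT and 10.5 CPM in pgWAT, and stayed below the filter. Sema4a, Sema4d, Sema4g, Sema6a, Sema6b and Sema6c had means between 0.743 and 8.88 CPM in either depot, and Sema4f had 4 counts in iWAT and 0 in pgWAT.

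Both neuropilins, the co-receptors of class 3 semaphorins and of vascular endothelial growth factors, were higher in pgWAT. Nrp2 was 16.3, 32.9 and 55.9 CPM in iWAT (lowest, median and highest library). In pgWAT male 1 to 4 it was 111, 25.9, 94.4 and 40.7 CPM, and in pgWAT female it ran from 44.8 to 101 CPM. Of the 10 pgWAT libraries, 7 exceeded the highest iWAT library. The log2 fold change of Nrp2 was 1.05 ± 0.19 (SE, edgeR FDR = 4.12e-05). It was 1.25 within plate column 8 but -0.24 (FDR = 0.683) within plate column 9, so the direction turned in the column that holds pgWAT male 2 and 4. Nrp1 was 65.5, 109 and 143 CPM in iWAT and 107, 133 and 187 CPM in pgWAT, with a log2 fold change of 0.50 ± 0.10 (SE, edgeR FDR = 0.00013) and of 0.34 (FDR = 0.384) within plate column 9.

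Of 9 plexins, the semaphorin receptors, 4 were tested and 1 was called. Plxnb2, which binds class 4 semaphorins, was 135, 201 and 244 CPM in iWAT and 217, 327 and 387 CPM in pgWAT. In 9 of 10 pgWAT libraries it exceeded the highest iWAT library, and only pgWAT male 1 did not. The depot difference on the log2 scale was 0.65 ± 0.08 (SE, edgeR FDR = 2.37e-08), with 0.72 and 0.56 within plate columns 8 and 9. Plxna1, a signal-transducing partner of neuropilins, was at 109 CPM (median) in iWAT and 96.2 CPM in pgWAT and was not called (-0.06, FDR = 0.771), although it was lower in pgWAT within plate column 9 (-0.92, FDR = 0.00938). Plxna3 (-0.59, FDR = 0.0952) and Plxnd1, a receptor of Sema3e (0.54, FDR = 0.0677), were not called either, but Plxnd1 passed the threshold without pgWAT male 2 (FDR = 0.0446), without iWAT female 8 (FDR = 0.029) and by limma-voom (0.71, FDR = 0.023). Plxna2 fell just short of the filter with 147 counts in iWAT and 32 in pgWAT (means 11.9 and 5.59 CPM). Plxna4 had means of 2.22 and 7.37 CPM and Plxnb1 of 3.75 and 7.17 CPM, and Plxnb3 had 4 and 2 counts.

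Of 8 ephrins, 4 were tested, and the ephrin-A ligands Efna1 and Efna5 were called higher in pgWAT. Efna1 was 0, 4.04 and 27.1 CPM in iWAT (lowest, median and highest) and 1.74, 9.63 and 21.7 CPM in pgWAT, and no pgWAT library lay above the iWAT range. Its log2 fold change of 1.25 ± 0.44 (SE, edgeR FDR = 0.023) lost the call without pgWAT male 3 (FDR = 0.0541), without pgWAT male 4 (FDR = 0.0815), without the 5 libraries named above (FDR = 0.172) and with the plate column in the model (FDR = 0.0825). Efna5 was 0, 7.40 and 14.8 CPM in iWAT and 8.33, 16.4 and 34.6 CPM in pgWAT, with 6 of 10 pgWAT libraries above the iWAT range. Its log2 fold change was 1.05 ± 0.28 (SE, edgeR FDR = 0.00305), and 0.69 (FDR = 0.0546) without pgWAT male 2, its highest library, 0.60 (FDR = 0.239) without the 5 libraries and 0.95 (FDR = 0.246) within plate column 8. The other ephrin-A ligands were not tested: Efna4 had means of 6.91 CPM in iWAT and 7.07 CPM in pgWAT, Efna2 of 1.43 and 0.542 CPM, and Efna3 had 3 counts in iWAT and 4 in pgWAT.

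The transmembrane ligand Efnb1 was lower in pgWAT. It ran from 11.3 to 48.8 CPM in iWAT with a median of 25.6 CPM, and from 3.25 to 30.4 CPM in pgWAT with a median of 15.4 CPM, so that the depots overlapped widely. This was a log2 fold change of -0.74 ± 0.22 (SE, edgeR FDR = 0.00804), and the call was lost with the plate column in the model (-0.62, FDR = 0.0531) and within plate column 8 (-0.32, FDR = 0.727). Efnb2 was not called (-0.08, FDR = 0.82), and Efnb3 had 10 counts in each depot (means of 0.690 and 2.39 CPM).

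Of the EphB receptors, which bind ephrin-B ligands, Ephb2 was higher in pgWAT. It was 0, 5.96 and 14.7 CPM in iWAT (lowest, median and highest library). In pgWAT male 1 to 4 it was 12.2, 10.4, 25.0 and 9.64 CPM, and in pgWAT female 1 to 6 it was 16.0, 29.99, 39.1, 19.4, 17.8 and 19.5 CPM. The 6 pgWAT female libraries and pgWAT male 3 lay above the iWAT range. The log2 fold change was 1.51 ± 0.31 (SE, edgeR FDR = 0.0002), and 0.60 (FDR = 0.415) within plate column 8. Ephb3 (0.24, FDR = 0.315) and Ephb4 (0.36, FDR = 0.0903), the latter known from venous endothelium, were not called. Ephb6, which lacks kinase activity, had means of 4.62 and 9.48 CPM, and Ephb1 had 1 and 3 counts.

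The EphA receptors were near the limit of detection. Epha2, the most abundant, had means of 5.17 CPM in iWAT and 7.22 CPM in pgWAT, and Epha1 of 4.45 and 4.71 CPM. Epha3 had means of 3.15 and 2.37 CPM. Epha4, Epha7, Epha8 and Epha10 had means between 0 and 2.11 CPM in either depot. Epha5 had 13 counts spread over 6 iWAT libraries and 0 counts in pgWAT.

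**Figure D2:**
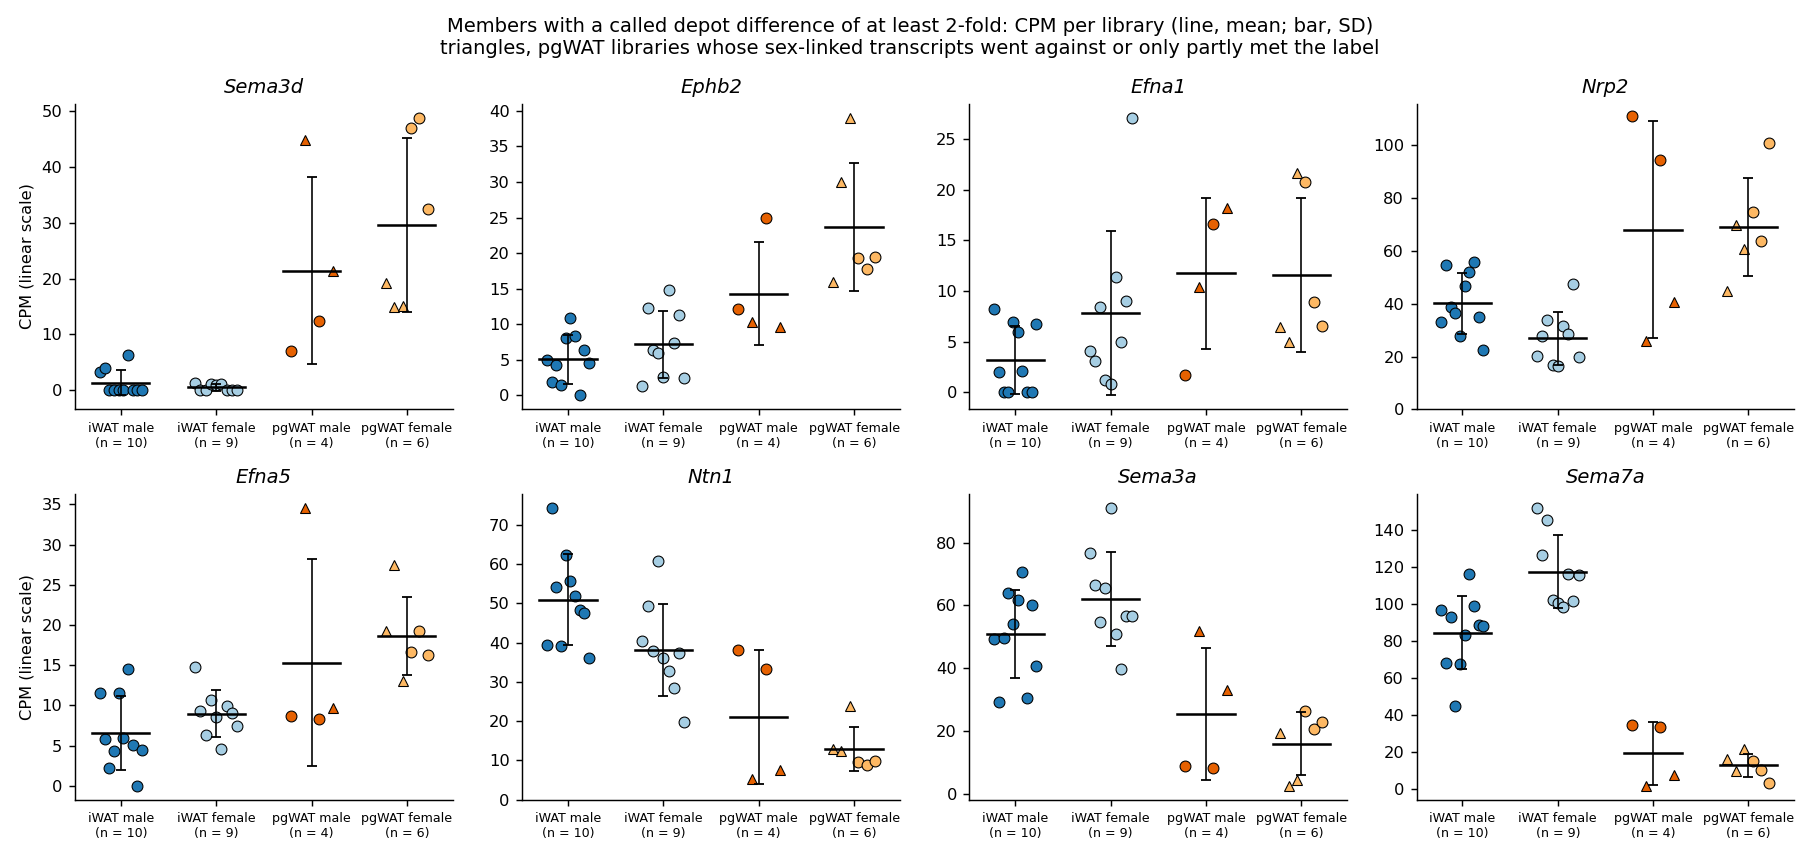
CPM per library (linear scale) of the 8 members with a called depot difference and an absolute log2 fold change of at least 1, by depot and sex label (10, 9, 4 and 6 libraries). The line is the mean, the bar the SD, and triangles mark the 5 pgWAT libraries whose sex-linked transcripts went against or only partly met the label. Sema3d and Sema7a separate the depots without overlap, and in Sema7a and Ntn1 the pgWAT male triangles sit below the pgWAT male circles.

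Of the Slit ligands, Slit3 was higher in pgWAT and Slit2 was not called. Slit3 was 104, 228 and 385 CPM in iWAT (lowest, median and highest) and 204, 334 and 710 CPM in pgWAT. The 3 pgWAT libraries above the iWAT range were pgWAT female 1, 2 and 3, with 515, 710 and 579 CPM. The depot difference on the log2 scale was 0.73 ± 0.15 (SE, edgeR FDR = 0.000334), but it was 0.37 (FDR = 0.0783) with the plate column in the model and 0.10 and 0.19 within plate columns 8 and 9. Without the 5 libraries, among them pgWAT female 1, 2 and 3, it was 0.54 (FDR = 0.0249). These 3 female libraries are the pgWAT wells of plate column 10. Slit2 had medians of 71.3 CPM in iWAT and 60.8 CPM in pgWAT (log2 fold change 0.06, FDR = 0.833). It was spread more widely in pgWAT, from 32.5 to 139 CPM, than in iWAT, from 48.5 to 89.2 CPM. Slit1 had 6 counts in iWAT and 0 in pgWAT.

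The Robo receptors were low beside these ligands. Robo1 had a count in all 29 libraries, with means of 9.47 CPM in iWAT and 5.20 CPM in pgWAT, and Robo4, known from endothelium, had means of 7.62 and 6.63 CPM. Robo2 had 6 and 4 counts and Robo3 had 1 and 1.

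Netrin-1 (Ntn1), a laminin-related secreted cue, was lower in pgWAT. It was 19.7, 40.4 and 74.3 CPM in iWAT (lowest, median and highest library). In pgWAT male 1 to 4 it was 38.2, 5.19, 33.3 and 7.50 CPM, and in pgWAT female 1 to 6 it was 12.8, 12.5, 23.9, 9.68, 8.89 and 9.76 CPM. Of the 10 pgWAT libraries, 7 lay below the lowest iWAT library, and pgWAT male 1 and 3 and pgWAT female 3 lay within the iWAT range. This was a log2 fold change of -1.45 ± 0.23 (SE, edgeR FDR = 6.64e-06), with -0.97 (FDR = 0.232) and -2.79 within plate columns 8 and 9. Ntn3, Ntn4 and Ntn5 had 13, 9 and 1 counts in iWAT and 6, 6 and 1 in pgWAT.

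Among the Unc5 receptors of netrins, Unc5b was abundant and not called, and Unc5a was lower in pgWAT. Unc5b was 87.4, 182 and 266 CPM in iWAT and 64.0, 147 and 286 CPM in pgWAT (log2 fold change -0.08, FDR = 0.724). In pgWAT male 1 to 4 it was 257, 64.0, 286 and 91.0 CPM, so that the lowest and the highest of all 29 libraries were both in this group. The depot difference of Unc5b took opposite signs in the 2 plate columns, at 0.79 (FDR = 0.0606) within column 8 and -1.27 (FDR = 0.00479, called) within column 9. Unc5a was 6.49, 30.9 and 63.2 CPM in iWAT and 0, 14.7 and 33.3 CPM in pgWAT, with a log2 fold change of -0.87 ± 0.27 (SE, edgeR FDR = 0.00946). Without the 5 libraries named above the change of Unc5a was -0.41 and was not called (FDR = 0.302), and within plate column 9 it was -0.45 (FDR = 0.6). Unc5c had 12 and 3 counts and Unc5d 2 and 0.

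**Figure D3:**
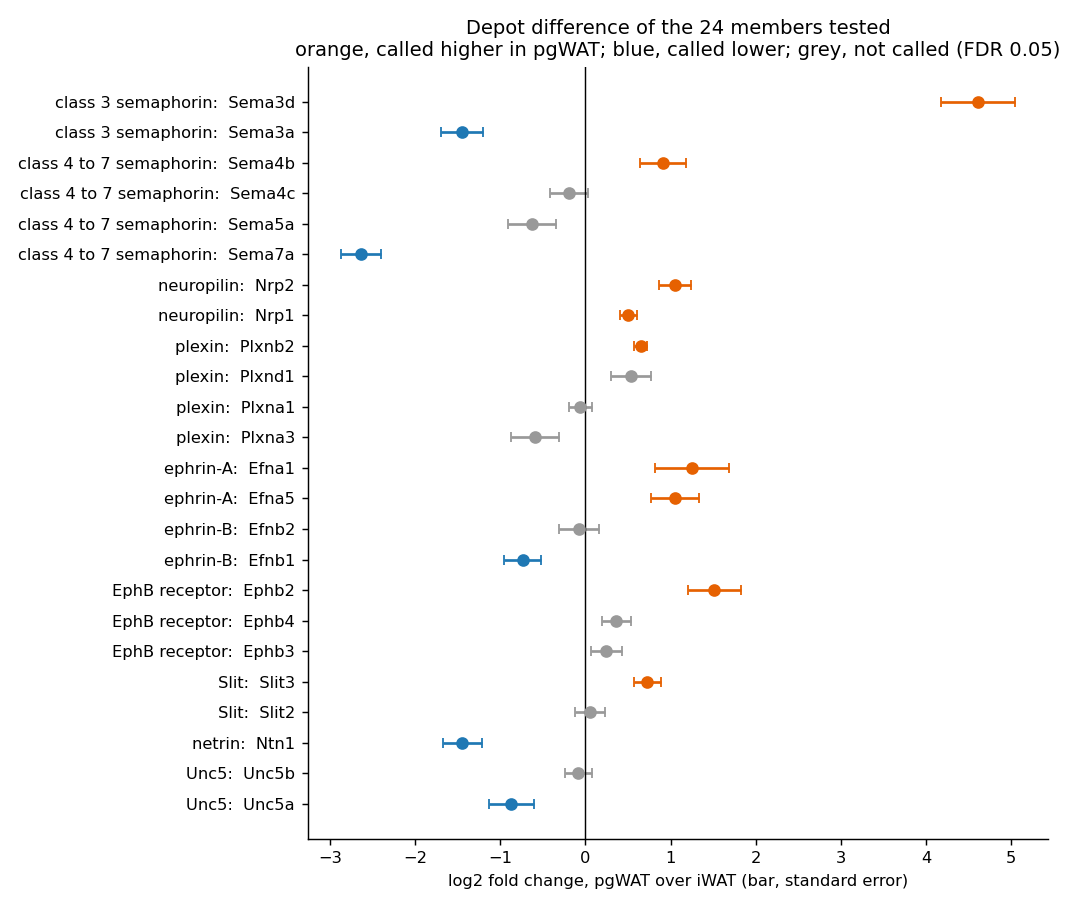
Depot difference of each of the 24 members tested, ordered by family, as the log2 fold change of pgWAT over iWAT with its standard error, where orange points were called higher, blue points lower and grey points not called. The points run from -2.64 for Sema7a to 4.61 for Sema3d. The 2 neuropilins and the 2 of 5 ephrin-A ligands that were tested were called higher. Of these ephrin-A ligands Efna5 passed the filter through pgWAT alone, and the calls of Efna1 and Efna5 were lost without the 5 pgWAT libraries against or only partly meeting their sex label.

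Within the male label the depot comparison called 7 members, where 20.3% of all genes were called. Of these, 3 were higher in pgWAT (11.8% of all genes) and 4 lower (8.53%). Within the female label it called 11 members, where 26.8% of all genes were called. Of these, 7 were higher (14.2% of all genes) and 4 lower (12.6%). Sema3d, Ephb2 and Plxnb2 were higher and Sema7a, Sema3a and Ntn1 lower under both labels. Under the male label the low Ntn1 values were those of pgWAT male 2 and 4, whose sex-linked transcripts went against the label (5.19 and 7.50 CPM). In pgWAT male 1 and 3 Ntn1 was at 38.2 and 33.3 CPM, against 36.1 to 74.3 CPM in iWAT male. Fewer members were called under the male label without the 5 libraries named above, as given in the closing section. The log2 fold changes under the male and the female label were 3.91 and 5.32 for Sema3d and -2.14 and -3.14 for Sema7a. Unc5a had -0.18 under the male and -1.56 under the female label, and Slit3 had 0.41 and 1.04. The difference between the 2 depot contrasts, tested as an interaction, was called for 0 of the 24 members by edgeR (0.181% of all genes) and for 0 by DESeq2 (0.418% of all genes). At an unadjusted p below 0.05 there were 3 of the 24 members and 771 of all 8853 genes tested. The 3 members were Unc5a, with a difference of 1.38 (FDR = 0.422), Sema7a with 1.00 (FDR = 0.547) and Efnb1 with -0.95 (FDR = 0.53).

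In iWAT, where the sex-linked transcripts matched the labels, 1 member was called between male and female libraries, where 3.22% of all genes were. Nrp1 was higher in male iWAT, at 109, 120 and 143 CPM (lowest, median and highest of 10 libraries) against 65.5, 78.7 and 108 CPM in the 9 female libraries. The log2 fold change was 0.63 ± 0.12 (SE, edgeR FDR = 0.00174). Every male library lay above every female library, but narrowly, with the lowest male at 108.7 CPM and the highest female at 107.8 CPM. The share of all genes that separate the sex labels in this way was not counted. Within plate column 7, which holds 7 male and 4 female iWAT wells, the change was 0.51 and not called (FDR = 0.0824). Unc5b was close to the threshold, with a median of 219 CPM in male and 143 CPM in female iWAT (log2 fold change 0.63 ± 0.19 SE, edgeR FDR = 0.0577). DESeq2 called it (FDR = 0.0346). Nrp2 was not called (log2 fold change 0.57, FDR = 0.226), but with the plate column in the model it was 1.06 (FDR = 0.00872). Markers of other cells differed between the sex labels in iWAT as well, and their part in these results was not tested. Epithelial markers (5 genes, 3 tested, 2 lower in male) summed to 1.96 to 56.3 CPM in male and 40.7 to 1453 CPM in female iWAT. Of these, Krt8 was 0 to 2.16 CPM in male and 15.8 to 740 CPM in female libraries (-8.49, edgeR FDR = 5.1e-07), and Krt18 was lower in male too (-6.00). The mesothelial list (4 tested, 1 lower in male) differed by Krt7 (-6.21), another keratin. Fibroblast markers (6 tested, 2 lower in male, Col1a1 at -1.23 and Lum at -1.38) and smooth muscle markers (3 tested, 2 lower in male, Acta2 at -1.01 and Tagln at -1.23) were lower in part. Of the endothelial, macrophage, neuronal and proliferation markers tested, 0 were called, but their summed levels differed. The macrophage sum had a median of 206 CPM in male and 89.3 CPM in female iWAT. Cd68 (0.95, edgeR FDR = 0.0634) and Adgre1 (1.39, edgeR FDR = 0.0654) were close to the threshold. The medians were 71.8 and 44.3 CPM for the endothelial list and 686 and 544 CPM for the proliferation list. For the neuronal list they were 33.1 and 54.8 CPM, lower in male.

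In pgWAT 0 members were called between the sex labels by edgeR, where 1 of 8853 genes (0.0113%) was called. An unadjusted p below 0.05 was found for 4 of the 24 members tested and for 739 of the 8853 genes. DESeq2 called 1 member (0.192% of all genes), Plxnb2 (-0.44, FDR = 0.0491). Without the 5 libraries that went against or partly met their labels, 2 male and 3 female libraries remained and 5 members were called, all higher under the male label, where 5.63% of all genes were called. These were Ntn1 (log2 fold change 1.87, edgeR FDR = 0.0039), Slit2 (1.28, FDR = 0.00184), Sema7a (1.59, FDR = 0.0163), Nrp1 (0.67, FDR = 0.0468) and Plxna2 (3.17, FDR = 0.0218). In the same 24 libraries the interaction was called for 2 members, Slit2 (1.103, FDR = 0.0381) and Sema7a (2.08, FDR = 0.0036), where 2.56% of all genes were called. Sema7a in these libraries was 34.7 and 33.3 CPM in pgWAT male and 15.2, 10.4 and 3.25 CPM in pgWAT female, while in iWAT it was lower in male than in female libraries (log2 fold change -0.49, FDR = 0.0313). Slit2 was 92.0 and 136 CPM in pgWAT male and 40.1, 60.8 and 32.5 CPM in pgWAT female. The 2 male wells lie in plate columns 8 and 7 and the 3 female wells in column 8, so the sex label and the plate column are only partly separate here.

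**Figure D4:**
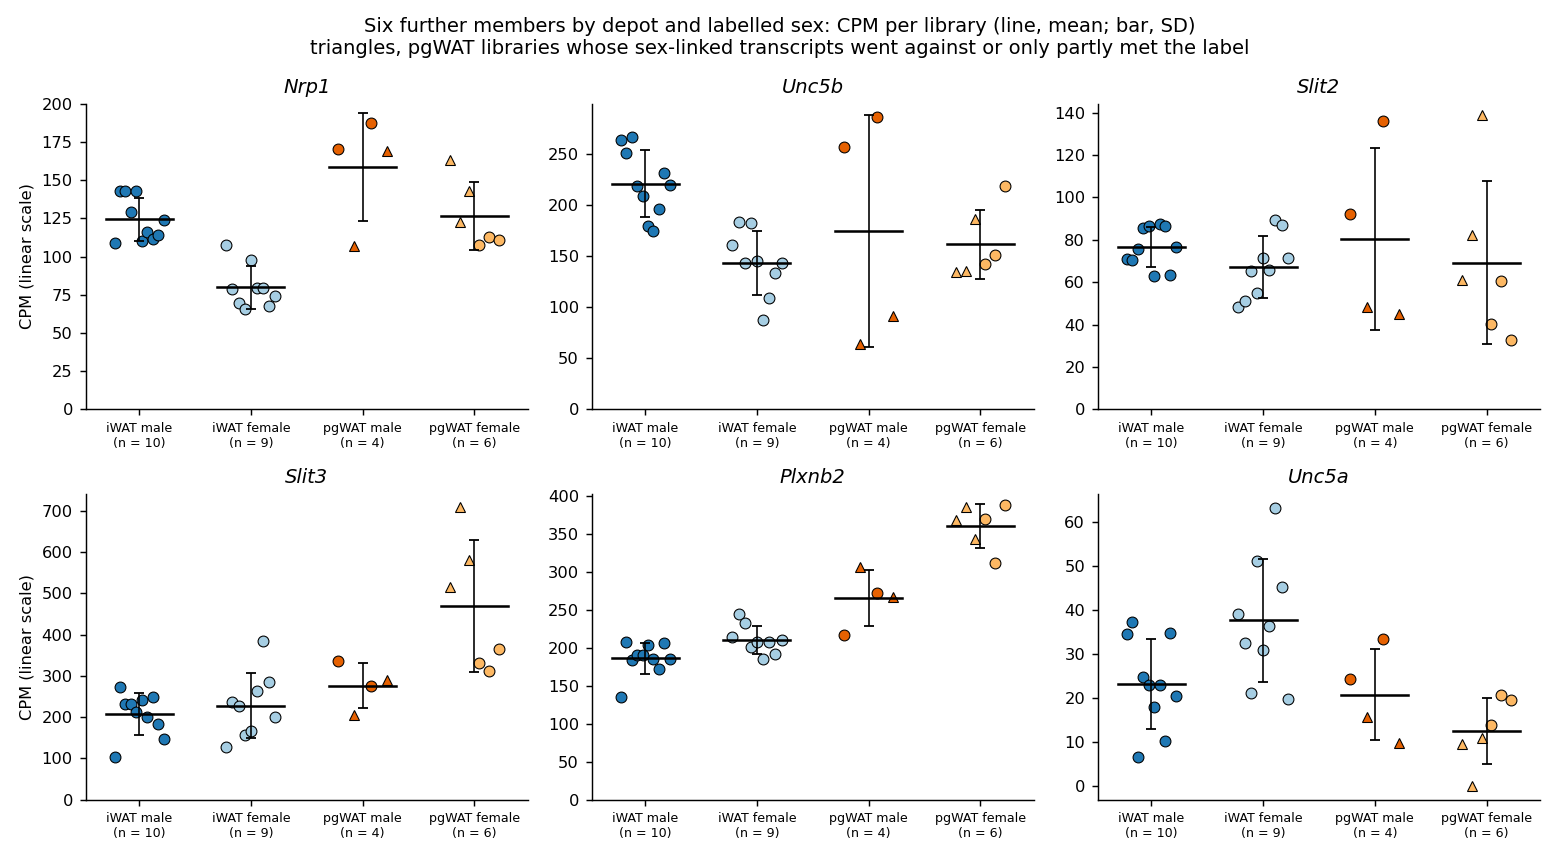
CPM per library (linear scale) of Nrp1, Unc5b, Slit2, Slit3, Plxnb2 and Unc5a by depot and sex label (10, 9, 4 and 6 libraries). The line is the mean, the bar the SD, and triangles mark the 5 pgWAT libraries whose sex-linked transcripts went against or only partly met the label. The lowest male iWAT value of Nrp1 lies narrowly above the highest female iWAT value. The pgWAT male values of Unc5b fall into 257 and 286 CPM for the circles and 64.0 and 91.0 CPM for the triangles.

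Genes that work with these ligands and receptors were counted from 2 lists. Of 23 co-receptors and other cues, 12 were tested, 5 were called higher and 2 lower in pgWAT (58.3% against 38.1% of all genes), with a median log2 fold change of -0.03. The heparan sulfate proteoglycans Sdc4 (1.76) and Sdc2 (1.12), whose sugar chains bind guidance cues, were higher without overlap of the depots, as were 1.47% of all genes tested. Sdc4 was 72.4 to 217 CPM in iWAT and 257 to 510 CPM in pgWAT, and Sdc2 was 55.9 to 163 CPM and 190 to 304 CPM. Kdr, the vascular endothelial growth factor receptor that pairs with neuropilins, was also higher (1.16, edgeR FDR = 0.00204), and Rgmb, a neogenin ligand, was lower (-1.01, edgeR FDR = 0.000305). The netrin receptor Dcc had 0 counts in all 29 libraries.

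Of 52 intracellular transducers of guidance signals, 41 were tested, and 12 were called higher and 9 lower in pgWAT. This was 51.2%, against 38.1% of all genes (20.1% higher and 17.9% lower), with a median log2 fold change of 0.04. Those called with an absolute log2 fold change of at least 1 and higher were the Slit-Robo GTPase-activating proteins Srgap3 (1.33) and Srgap1 (1.31), the cofilin kinase Limk2 (1.11) and Rnd1 (1.03), a small GTPase that binds plexins. Those lower were the Rac GTPase-activating protein Chn1 (-2.39), which acts after Eph receptors, and the exchange factor Trio (-1.25). Chn1 was 3.91 to 28.0 CPM in iWAT and 0 to 5.19 CPM in pgWAT.

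Markers of other cells moved with depot too, and their part in the results above was not tested. Of 6 mesothelial markers, 4 were tested and all 4 were higher in pgWAT, with a summed level of 57.3 to 198 CPM there. In iWAT the sum was 0 to 244 CPM with a median of 2.99 CPM. Krt7, one of the 4, was at 0 to 2.26 CPM in male and 12.4 to 244 CPM in female iWAT, so its mean was higher in iWAT (27.3 CPM) than in pgWAT (23.4 CPM), and its depot difference was -0.73 under the female label. The other 5 genes summed to 0 to 8.43 CPM in iWAT and 55.5 to 183 CPM in pgWAT. Over all iWAT libraries together, Lrrn4 had 0 counts, Upk3b 1, Upk1b 2, Wt1 6, Msln 13 and Krt7 307. Sema3d was at 0 counts in iWAT female 9, the library with 244 CPM, where Krt7 made up the sum. Smooth muscle markers (4 genes, 3 tested, 3 higher) summed to 584 to 3539 CPM in iWAT and 1337 to 3130 CPM in pgWAT, and endothelial markers (6 genes, 3 tested, 1 higher, Kdr) to 28.6 to 106 CPM and 41.5 to 109 CPM. Macrophage markers (6 genes, 3 tested, 1 higher) summed to 70.1 to 250 CPM and 97.6 to 780 CPM, and proliferation genes (4 tested, 3 lower) to 469 to 765 CPM and 291 to 572 CPM. Epithelial markers (5 genes, 3 tested, 1 lower) summed to 1.96 to 1453 CPM and 13.9 to 176 CPM, and 5 of 6 fibroblast markers were higher in pgWAT. No pericyte or lymphatic endothelial marker passed the filter. Schwann cell markers, none of 7 passing the filter, summed to 4.15 to 26.3 CPM and 4.34 to 25.2 CPM. Of 5 neuronal markers, Nefl alone was tested and was lower in pgWAT, with a sum of 17.0 to 83.4 CPM for the list in iWAT and 0 to 3.46 CPM in pgWAT.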

How the data were processed

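RNA of 29 cultures (1 well each) was sequenced as Smart-seq3 libraries. Per the study's methods, adapters were removed with NGmerge and the authors mapped and quantified reads by Salmon 1.9.0 on the Gencode vM32 transcriptome (GRCm39) and removed libraries with few detected genes. STAR 2.7.10a, FastQC 0.11.9 and MultiQC 1.12 served quality control. The deposited values are expected counts (estimated counts by gene, UMI and other reads together, not normalized), of which 96.5% are whole within 1e-06 (85.1% of those above 0). Values were rounded to whole counts.

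Symbols were matched by Ensembl ID to a GRCm38 annotation (91.4% of features, the rest holding 0.439% of counts), which also gave the median transcript length per gene and no gene coordinates. Reads may be shared with an overlapping gene on the opposite strand for Ntn5 (23.4% of exon bases), Efna3 (14.1%), Plxna1 (10.7%), Efna4 (10.5%) and Sema4c (7.27%). Exact 31-base matches to other genes reached at most 5.24% (Epha1).

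edgeR 4.0.16 (R 4.3.3) served for the main tests. Genes were kept by filterByExpr with the 4 groups and a minimum count of 10, scaled by TMM, fitted with 1 mean for each group and tested by the two-sided quasi-likelihood F test (Benjamini-Hochberg FDR over 8853 genes, called below 0.05). The filter required at least 16.4 CPM in at least 4 libraries. CPM used library totals times TMM factors (0.949 to 1.06). Contrasts were pgWAT minus iWAT with sex labels weighted equally and within each label, male minus female within each depot, and the interaction. They share libraries and are not independent of each other. The fit was checked on simulated counts. DESeq2 1.42.0 (the study's own test for these cultures), limma-voom (limma 3.58.1), other scalings and filters, the column of the library plate and left-out libraries were alternatives. Groups are the labels as deposited. Libraries are numbered within a group in order of deposition.

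The members and gene lists were chosen with earlier results of these data known. Every member is named at least once. Values in full are given for members called by depot with an absolute log2 fold change of at least 1, for the most abundant member of each family per kb and for members called by sex label. Of the other pathway genes, those called with an absolute log2 fold change of at least 1 are named. Promoter windows are those of RefSeq, build GRCm38.p6.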

Additional observations from a re-analysis of the deposited data

Results flagged for a closer look

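In each of the 4 groups the highest or lowest library of each tested member was compared with its nearest neighbour by Dixon's ratio. Of 96 groups of libraries, 8 held a library beyond the 95% critical value, and chance gives about 1 in 20. Efna1 stood at 27.1 CPM in iWAT female 9, the library with high epithelial markers, where the next library was at 11.3 CPM. Efna5 stood at 34.6 CPM in pgWAT male 2 with the next at 9.64 CPM, and Ephb2 at 25.0 CPM in pgWAT male 3 with the next at 12.2 CPM. Ephb3 was at 63.2 CPM in iWAT female 7 (next 41.7 CPM), Ntn1 at 23.9 CPM in pgWAT female 3 (next 12.8 CPM) and Sema4b at 23.2 CPM in iWAT female 3 (next 9.43 CPM). The low values were Plxnb2 at 135 CPM in iWAT male 1, with the next at 173 CPM, and Sema4c at 6.51 CPM in pgWAT female 6, with the next at 25.6 CPM.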

How the results depend on the processing

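The depot calls of Sema3d, Sema7a, Plxnb2 and Sema4b held under every alternative in which they were tested, the 29 leave-one-out fits included. The exception was a fold change above 2, which Plxnb2 and Sema4b did not pass. Besides the leave-one-out fits, Sema4b was tested in only 7 alternatives, against 11 for Sema7a and Plxnb2, with a highest FDR of 0.0441. Of the 24 members tested, 14 were called by depot, and leaving out 1 library at a time gave 13 to 15. The count was 8 with a fold change above 2 and 7 of 11 tested with a stricter filter (48.3% of all genes called). The share of all genes called at a fold change above 2 is not given, here or for the sex labels below. It was 9 of 18 tested with depot alone in the model (38.5% of all genes, and fewer members passed the filter). Within plate column 8 it was 8 of 22 (7.97% of all genes called) and within plate column 9 it was 7 of 18 (22.2%). Without a filter 66 members were tested and 20 called (13.9% of all genes), with Sema3b, Sema3f, Sema4d and Plxna4 higher and Plxna2 and Epha5 lower in addition. The number passing the filter was 24, 66 without one and 11 with the stricter one.
Without the 5 pgWAT libraries 12 members were called (23.7% of all genes), of which 11 were among the 14. Efna1, Efna5 and Unc5a were lost. The count under the male label was 5 to 9 with 1 library left out and 4 without the 5 libraries (9.16% of all genes called). Under the female label it was 10 to 12 with 1 library left out and 7 with the stricter filter (36.7% of all genes called). In iWAT the number of members called by sex was 1 to 2 with 1 library left out (2, with Unc5b added, without iWAT female 2 or any of the 4 pgWAT male libraries). It was 0 with a fold change above 2 and 0 within plate column 7 (3.03% of all genes called). It was 2 without a filter (1.92% of all genes), with the stricter filter (5.38%) and with DESeq2 (4.43%). It was 3 both without the 5 libraries (5.84%) and with the plate column in the model (5.6%). In pgWAT it was 0 in every leave-one-out fit, 5 without the 5 libraries and 1 with DESeq2, and the interaction was 0 in every leave-one-out fit and 2 without the 5 libraries. Calls that rest on 1 library are those of Efna1 and Efna5, given above.
Sign changes occurred for 1 called member, Nrp2, at -0.24 within plate column 9. The others were not called in the fit of all libraries: Efnb2 at 0.34 without the 5 libraries, 0.59 within column 8 and -0.25 to 0.0288 with 1 library left out; Plxna1 at 0.0495 without the 5 libraries, -0.92 within column 9 and -0.21 to 0.0290; Plxnd1 at -0.0697 within column 9; Slit2 at -0.16 with the plate column, -0.48 and -0.65 within columns 8 and 9, -0.0861 with limma-voom and -0.15 to 0.15; and Unc5b at 0.25 without the 5 libraries, 0.0052 with the plate column, 0.79 and -1.27 within columns 8 and 9 and -0.27 to 0.0478. Of these values, those of Plxna1 and Unc5b within column 9 were called. In the sex contrast of pgWAT Slit2 ran from -0.19 to 0.53 with 1 library left out, and Sema7a was at -0.0797 with limma-voom. The interaction of Slit2 ran from -0.38 to 0.35 with 1 library left out and was -0.0059 with limma-voom. The cause of these changes was not tested. No paired analysis was possible because the labels give no replicate numbers and the wells are numbered in order of deposition only. At 2.58 to 9.76 CPM for 3 counts, most of the 44 members below the filter could not be compared.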
